A study of Mus musculus with 24 samples.

Results

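The 10 genes described here encode the signalling adaptors DAP12 (Tyrobp) and DAP10 (Hcst), the TREM family receptors Trem1, Trem2, Trem3, Treml1, Treml2, and Treml4, the C-type lectin receptor Clec5a, and the kinase Syk. They were chosen by gene symbol from the 23930 amplicons of a targeted RNA-seq table, and all 10 were found, each with 1 amplicon. The table holds 24 libraries from untreated mice, 4 for each combination of 2 splenic monocyte subsets and 3 genotypes: WT, Slc29a3-/-, and Slc29a3-/- Tlr7-/-. Slc29a3 encodes a lysosomal nucleoside transporter, and Tlr7 encodes an endosomal receptor for RNA and nucleosides. The design asks how the subsets change when the transporter is lost, and whether the change needs TLR7.

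The mutant alleles were made in C57BL/6 zygotes with CRISPR/Cas9 and are germline, so every cell of the mice carries them, while the WT C57BL/6 mice were bought from a breeder. No group carries the Tlr7 mutation alone. Cells were depleted of T, B, NK, Ly6G+, and erythroid cells on beads and sorted as CD11b+ NK1.1- Ly6G- cells, and then as Ly6C high cells or as Ly6C low cells that bear Fcgr4. The labels name these cells macrophages, and the study names them monocytes. The age of the mice is not given, and nothing says whether the 4 libraries of a group came from separate mice, so p-values measure only the spread between these libraries.

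DAP12 is a short transmembrane protein that has almost no extracellular part and carries an ITAM, a motif that is phosphorylated by Src family kinases and then binds Syk. DAP10 lacks an ITAM and instead recruits phosphoinositide 3-kinase. Receptors such as TREM1, TREM2, TREM3, TREML4, and CLEC5A have short tails and reach the surface and signal through these adaptors. TREM1 is known for amplifying TLR responses in neutrophils and monocytes, TREM2 for lipid sensing and survival in macrophages and microglia, and TREML4 as a marker of Ly6C low monocytes that takes part in TLR7 signalling. CLEC5A, also called MDL-1, is known from monocytes, macrophages, and neutrophils. TREML1 is a platelet granule protein, and TREML2 is a myeloid and B cell protein that has no known need for DAP12.

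In mm10 (GENCODE vM21), Tyrobp lies on the plus strand at chr7:30413760-30417585 and Hcst on the minus strand at chr7:30417712-30419854, so that the 2 genes end 126 bases apart. The 6 TREM genes lie on the plus strand of chromosome 17 within 134.4 kb, at chr17:48232768-48367176, in the order Trem1, Trem3, Treml4, Treml2, Trem2, Treml1. Only 1 other protein-coding gene, B430306N03Rik, was annotated between them. Clec5a is at chr6:40574894-40585821 on the minus strand, and Syk is at chr13:52583173-52648792 on the plus strand. An annotated noncoding gene on the opposite strand, AC241601.2, overlaps Trem1, and because the use of strand in counting is not given, reads of the pair cannot be told apart.

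Of the 10 genes, 7 had a promoter sequence in RefSeq (GRCm38.p6), and Tyrobp, Trem3, and Treml2 had none. The 250 bases before the start site are printed for the 4 receptors among these 7 whose levels differed between the monocyte subsets in every genotype, Clec5a and Trem2 being lower and Trem1 and Treml4 higher in Ly6C low cells. Capitals mark 2 motifs, searched on both strands: GAGGAA (or TTCCTC), the core letters bound by the myeloid factor PU.1, and TTNNGNAA (or its reverse complement), letters of a C/EBP type site.
Clec5a, chr6:40585806-40586055, minus strand: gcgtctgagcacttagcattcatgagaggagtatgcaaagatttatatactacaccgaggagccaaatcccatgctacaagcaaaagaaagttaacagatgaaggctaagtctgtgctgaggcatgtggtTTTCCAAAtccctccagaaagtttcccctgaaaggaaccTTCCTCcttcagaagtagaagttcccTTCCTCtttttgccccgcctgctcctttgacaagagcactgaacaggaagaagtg
Trem1, chr17:48232489-48232738, plus strand: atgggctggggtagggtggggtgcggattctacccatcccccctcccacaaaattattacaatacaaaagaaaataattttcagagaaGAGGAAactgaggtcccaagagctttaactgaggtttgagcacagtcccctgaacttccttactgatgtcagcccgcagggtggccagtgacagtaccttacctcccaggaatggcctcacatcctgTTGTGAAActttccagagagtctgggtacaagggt
Treml4, chr17:48264045-48264294, plus strand: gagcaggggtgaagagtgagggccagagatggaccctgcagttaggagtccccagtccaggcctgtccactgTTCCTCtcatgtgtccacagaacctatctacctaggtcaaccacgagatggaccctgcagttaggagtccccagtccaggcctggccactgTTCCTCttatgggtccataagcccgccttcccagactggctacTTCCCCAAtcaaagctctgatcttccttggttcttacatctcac
Trem2, chr17:48346151-48346400, plus strand: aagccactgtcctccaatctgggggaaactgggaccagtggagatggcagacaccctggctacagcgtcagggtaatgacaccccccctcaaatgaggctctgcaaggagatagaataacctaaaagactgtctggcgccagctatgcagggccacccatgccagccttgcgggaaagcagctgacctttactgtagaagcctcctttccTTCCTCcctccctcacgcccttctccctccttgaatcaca
The Clec5a window holds 2 matches to the PU.1 type letters, at 81 and 55 bases before the start, and 1 to the C/EBP type letters. The Trem1 window holds 1 of each, the Treml4 window holds 2 and 1, and the Trem2 window holds 1 of the PU.1 type and none of the C/EBP type. Across all 32851 promoters searched, 23.3% held the PU.1 type letters and 36.8% held the C/EBP type letters. Of the 8 windows of the 7 genes, 5 held each, and Syk has 2 windows, of which 1 held both. The Hcst window held 2 C/EBP type matches and the Treml1 window held no match. The matches are letters in a sequence and do not show binding.

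Levels are given in RPM, reads scaled to the same total in every library, and 1 amplicon stands for a gene, so levels of different genes are not compared. Inferred depth was 12311135 to 14572060 reads per library, at which 3 reads are worth 0.206 to 0.244 RPM. WT replicates 1 to 3 of both subsets carried barcodes 11 to 16 and at least 14237204 reads, whereas WT replicate 4 and all mutant libraries carried barcodes 24 to 46 and at most 13048424 reads. WT replicate 4 stood apart from the other WT libraries for several of the genes below, so comparisons with WT are also given against WT replicate 4 alone, in a fit that assumes that this lone library varies like the other groups. Ly6C high Slc29a3-/- replicate 4 stood apart as well. The targeted transcripts were not lost: Slc29a3 was at 163 to 225 RPM in WT and 127 to 173 RPM in Slc29a3-/- Ly6C high libraries, and Tlr7 was at 259 to 345 RPM in Ly6C high and 355 to 627 RPM in Ly6C low Slc29a3-/- Tlr7-/- libraries. Where the amplicons lie relative to the mutations is not given, so these values say nothing about the labels. The subsets carried their markers: all 5 measured Ly6C high monocyte markers were lower and at least 9 of 10 Ly6C low markers were higher in Ly6C low libraries of each genotype, while Ly6c2 was not among the amplicons.

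**Figure D1:**
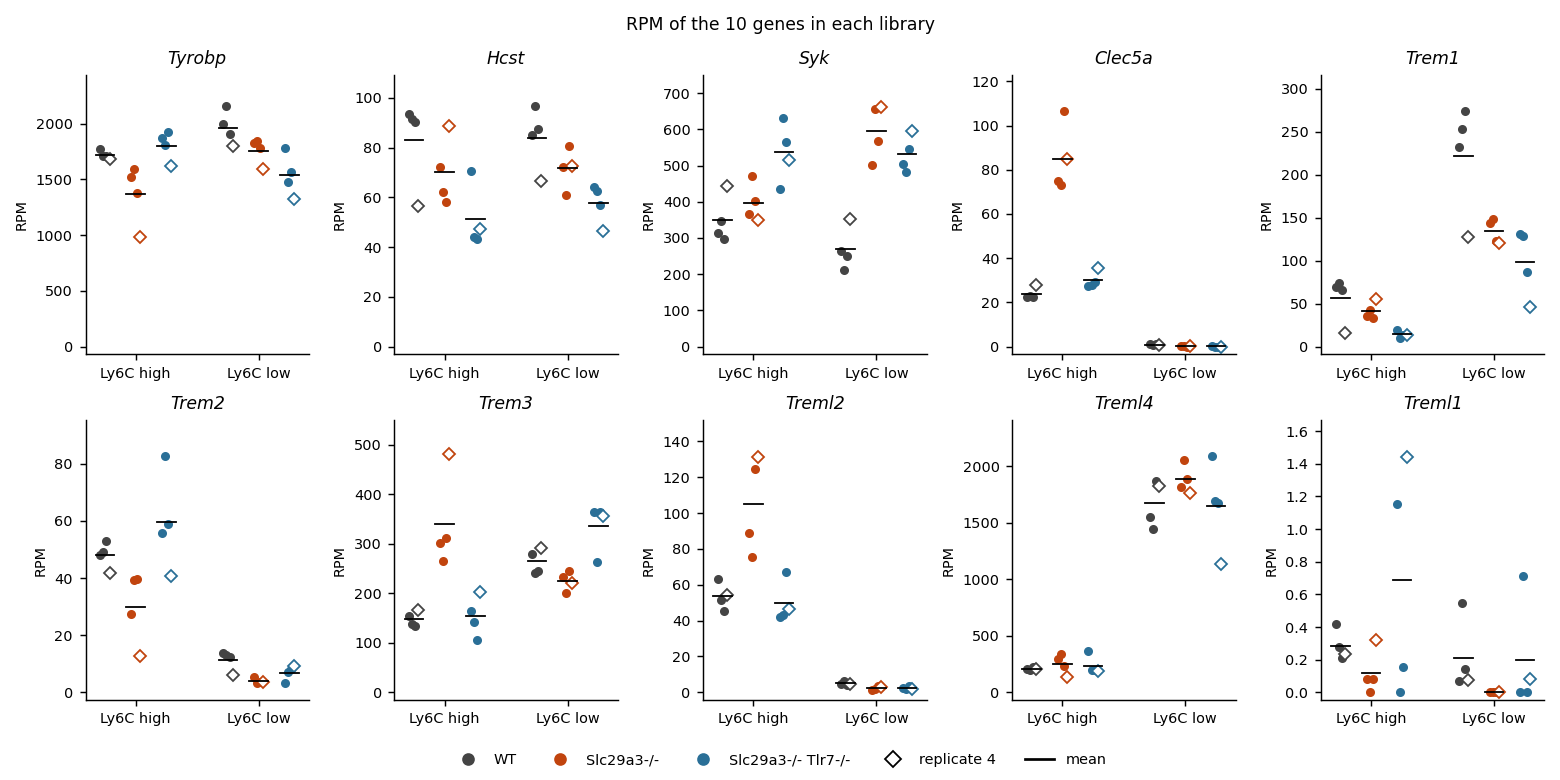
RPM of the 10 genes in each of the 24 libraries, by subset (x axis) and genotype (color), on linear axes that start at 0. Points are libraries, diamonds are replicate 4, and black lines are group means. Treml4 and Trem1 sit higher in Ly6C low libraries, Clec5a, Treml2, and Trem2 sit higher in Ly6C high libraries, and Treml1 reaches at most 1.44 RPM.

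The first comparison asks which of these genes separate the monocyte subsets. In WT mice, Ly6C low cells held more Treml4, Trem1, and Trem3 and less Clec5a, Treml2, and Trem2 than Ly6C high cells, while both adaptors and Syk were not called. Differences are on the log2(RPM + 1) scale, tested with limma, and called at an adjusted p under 0.05 over all genes. Treml1 failed the filter on low values and was not tested, so 9 of the 10 genes entered this comparison. Of these 9, 3 were higher and 3 lower in Ly6C low WT libraries, against 10.5% and 19.1% of all genes. Clec5a passed the filter only through the Ly6C high libraries, so its place in this count is no evidence of a difference. In bulk samples such as these, a lower level from fewer cells of a type and one from less RNA per cell cannot be told apart.

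Neither adaptor passed the test between the subsets in WT mice. Tyrobp was at 1771, 1708, 1710.3, and 1685 RPM in the 4 Ly6C high WT libraries and at 1995, 2159.9, 1908, and 1797 RPM in the Ly6C low WT libraries. The Ly6C low values were all above the Ly6C high values, but the difference of 0.19 ± 0.14 (SE) was not called (adjusted p = 0.34). Hcst was at 83 ± 17.8 RPM (SD, n = 4) in Ly6C high and 83.9 ± 12.6 RPM in Ly6C low WT libraries, a difference of 0.03 (adjusted p = 0.93). In Slc29a3-/- mice Tyrobp was higher in Ly6C low cells by 0.38 ± 0.14 (adjusted p = 0.03), a call that was lost in 9 of 18 alternatives. These were TMM and RLE scaling, no filter, only the groups compared, the thresholds of the study, and the removal of a single library. The single libraries were Ly6C high Slc29a3-/- replicate 4 and Ly6C low Slc29a3-/- replicates 1, 2, and 3.

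Treml4 was the receptor with the largest excess in Ly6C low cells. It was at 204, 202, 221, and 203 RPM in Ly6C high WT libraries and at 1548, 1442, 1867, and 1827 RPM in Ly6C low WT libraries. The groups were far apart, with a difference of 3.0 ± 0.23 (adjusted p = 3.8e-10). The difference was 2.98 in Slc29a3-/- mice and 2.82 in Slc29a3-/- Tlr7-/- mice. Trem1 was at 68.8, 74.2, 65.3, and 15.3 RPM in Ly6C high and at 232, 253, 274, and 127 RPM in Ly6C low WT libraries. Replicate 4 was the lowest in both subsets, and the groups did not overlap (difference 2.13 ± 0.37, adjusted p = 8.3e-05). The Trem1 difference was 1.70 in Slc29a3-/- mice and 2.62 in Slc29a3-/- Tlr7-/- mice.

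Clec5a, Treml2, and Trem2 went the other way. Clec5a was at 22.2, 23, 22.5, and 27.8 RPM in Ly6C high WT libraries and at 0.978, 0.823, 1.12, and 0.613 RPM in Ly6C low WT libraries, which is 8 to 16 reads a library. Summed over 4 libraries, 1330 reads stood against 50, a ratio of normalized reads of 26.7 (95% exact interval of 20.1 to 36.2, which covers counting error only). In Slc29a3-/- mice 4278 reads stood against 7, a ratio of 610 (interval of 296 to 1519), and in Slc29a3-/- Tlr7-/- mice 1508 stood against 1, a ratio of 1501 (interval of 269 to 59327). The fitted Clec5a differences of -3.72, -6.22, and -4.92 in the 3 genotypes depend on the added 1 RPM.

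Treml2 was at 53.5 ± 7.31 RPM in Ly6C high and 4.96 ± 0.826 RPM in Ly6C low WT libraries, a difference of -3.19 ± 0.22 (adjusted p = 7.3e-11). Its difference was -4.93 in Slc29a3-/- mice and -3.87 in Slc29a3-/- Tlr7-/- mice. Trem2 was at 47.9, 49.1, 52.9, and 41.8 RPM in Ly6C high and at 13.6, 13.1, 12.4, and 6.05 RPM in Ly6C low WT libraries. The groups did not overlap, and the difference was -2.04 ± 0.31 (adjusted p = 1.6e-05), against -2.53 in Slc29a3-/- mice and -2.96 in Slc29a3-/- Tlr7-/- mice.

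Trem3 and Syk differed in direction between genotypes. Trem3, a DAP12 partner of mouse myeloid cells, was higher in Ly6C low cells of WT mice by 0.83 ± 0.18 (adjusted p = 8.6e-04, and 0.80 with adjusted p = 0.32 between the replicate 4 libraries alone) and of Slc29a3-/- Tlr7-/- mice by 1.16 ± 0.18 (adjusted p = 1.6e-05). In Slc29a3-/- mice it was lower in Ly6C low cells, by a difference of -0.56 ± 0.18 (adjusted p = 0.015), a call lost without Ly6C high Slc29a3-/- replicate 4. Syk had a difference of -0.39 ± 0.16 in WT mice (adjusted p = 0.073). This was called when same-numbered libraries were paired within genotypes, a pairing that the labels do not give. In Slc29a3-/- mice Syk was higher in Ly6C low cells by 0.59 ± 0.16 (adjusted p = 0.0048). In all, 4 of 9 genes were higher and 4 lower in Ly6C low cells of Slc29a3-/- mice, against 22.1% and 19.1% of all genes. In Slc29a3-/- Tlr7-/- mice 3 were higher and 3 lower, against 11.8% and 21.4% of all genes. Clec5a is among the lower genes in both counts and passed the filter only through the Ly6C high libraries. As in WT mice, its place in these counts is no evidence of a difference.

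**Figure D2:**
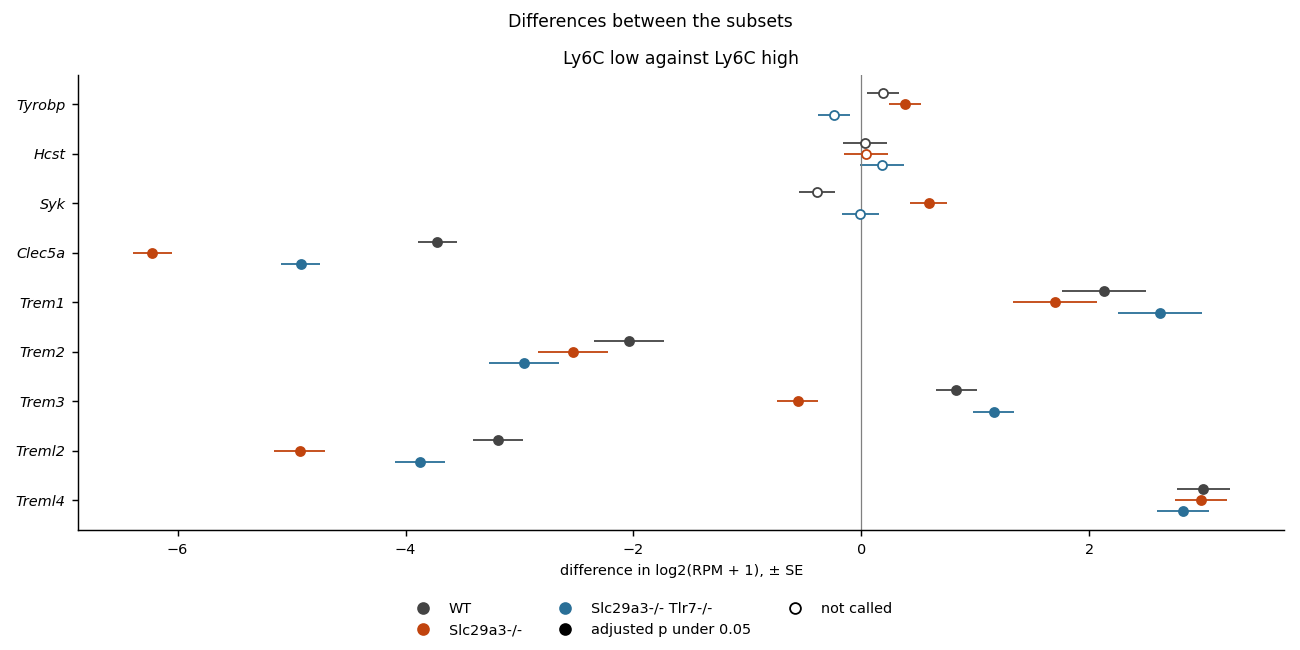
Difference of Ly6C low against Ly6C high libraries in log2(RPM + 1) for 9 genes (x axis), by genotype (color). Points are limma estimates with bars of 1 SE, filled where the adjusted p was under 0.05. Treml4 lies between 2.82 and 3.0 in the 3 genotypes, Clec5a and Treml2 lie between -6.22 and -3.19, and Trem3 lies on opposite sides of 0 in Slc29a3-/- mice and in the other 2 genotypes.

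Treml1 was at or near the detection limit. It was at 0 to 1.44 RPM in all 24 libraries, at most 18 reads. It was at 0 in all 4 Ly6C low Slc29a3-/- libraries and at 0.07 to 0.549 RPM in the Ly6C low WT libraries. The exact two-sided permutation test of these 4 against 4 libraries gave p = 0.029, the smallest it can give, and 0.087 after Benjamini-Hochberg adjustment over the 9 tests made of Treml1 and of Clec5a in Ly6C low cells.

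In Ly6C high cells, the next comparison asks what the loss of Slc29a3 changed. Clec5a, Trem3, and Treml2 were higher in Slc29a3-/- than in WT libraries, by 3.42-fold, 2.23-fold, and 1.91-fold on the log2(RPM + 1) scale. No gene of the 10 was called lower, and Tyrobp and Trem2 were lower without overlap of the groups but did not pass the test. The 3 genes called higher of 9 tested stand against 10.2% of all genes called higher and 17.8% called lower. The median difference was 0.19 over the 9 genes and -0.14 over all genes, and under TMM scaling the median of all genes was -0.01.

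Clec5a was at 74.8, 73.2, 107, and 84.8 RPM in Slc29a3-/- libraries, against 22.2, 23, 22.5, and 27.8 RPM in WT libraries. Every Slc29a3-/- value was above every WT value, with a difference of 1.78 ± 0.15 (adjusted p = 2.6e-05). Against WT replicate 4 alone the difference was 1.56 (adjusted p = 0.024), and Clec5a was then the only 1 of the 9 genes called, against 1.53% of all genes. Trem3 was at 301, 265, 311, and 481 RPM in Slc29a3-/- libraries and at 154, 139, 135, and 167 RPM in WT libraries. Replicate 4 was the highest of its group in both genotypes, and the groups did not overlap (difference 1.15 ± 0.20, adjusted p = 0.0012). Against WT replicate 4 alone the Trem3 difference was 0.98 and was not called (adjusted p = 0.19).

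Treml2 was at 89, 75.4, 124, and 131 RPM in Slc29a3-/- libraries and at 63, 51.3, 45.4, and 54.2 RPM in WT libraries. The groups did not overlap, and the difference was 0.93 ± 0.20 (adjusted p = 0.0036), or 0.90 (adjusted p = 0.21) against WT replicate 4 alone. Without Ly6C high Slc29a3-/- replicate 4 the differences of Clec5a, Trem3, and Treml2 were 1.77, 0.97, and 0.81, and all 3 stayed called. Groups without overlap, 3 higher and 2 lower here, were found for 11.9% and 21.8% of all genes.

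The 2 genes that were lower without overlap were an adaptor and a receptor. Tyrobp was at 1525, 1589, 1382, and 985 RPM in Slc29a3-/- Ly6C high libraries, with replicate 4 far below the others, against 1685 to 1771 RPM in WT libraries. Its difference was -0.35 ± 0.15 (adjusted p = 0.1) and -0.20 without Slc29a3-/- replicate 4. Trem2 was at 27.3, 39.5, 39.6, and 12.9 RPM in Slc29a3-/- libraries, all below the WT range of 41.8 to 52.9 RPM. Its difference of -0.78 ± 0.29 was not called (adjusted p = 0.059) and was -0.44 without Slc29a3-/- replicate 4.

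The remaining genes were not called in Ly6C high Slc29a3-/- libraries against WT. Hcst was at 70.3 ± 13.7 RPM against 83 ± 17.8 RPM, Treml4 at 249.9 ± 87.4 RPM against 207 ± 8.97 RPM, and Syk at 397 ± 54.2 RPM against 349.8 ± 65.8 RPM. Trem1 was at 35.5, 42.2, 32.9, and 54.9 RPM in Slc29a3-/- libraries, a difference of -0.23 ± 0.39 (adjusted p = 0.69). The outcome for Trem1 depended on WT replicate 4, whose 15.3 RPM was below every Slc29a3-/- value while the other 3 WT libraries were above every one. Without it Trem1 was lower in Slc29a3-/- libraries (difference -0.76, adjusted p = 0.016), and with it as the only WT library the sign turned (1.35, adjusted p = 0.086).

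Markers of other myeloid cells moved with these receptors. The summed level of 12 neutrophil markers was 25044 to 34231 RPM in Ly6C high WT libraries, 76816 to 142012 RPM in Slc29a3-/- libraries, and 13727 to 40899 RPM in Slc29a3-/- Tlr7-/- libraries. The summed level of 7 granulocyte-monocyte progenitor markers was 352 to 456 RPM, 868 to 2901 RPM, and 367 to 946 RPM in the same order. Of the 12 neutrophil markers 7 were higher and 2 lower in Slc29a3-/- than in WT libraries, and of the 7 progenitor markers 5 were higher and none lower. Of all genes 10.2% were higher and 17.8% lower. None of either list was called against WT replicate 4 alone, where the medians were 1.93 and 1.84. The part of these cells in the higher Clec5a, Trem3, and Treml2 was not tested.

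**Figure D3:**
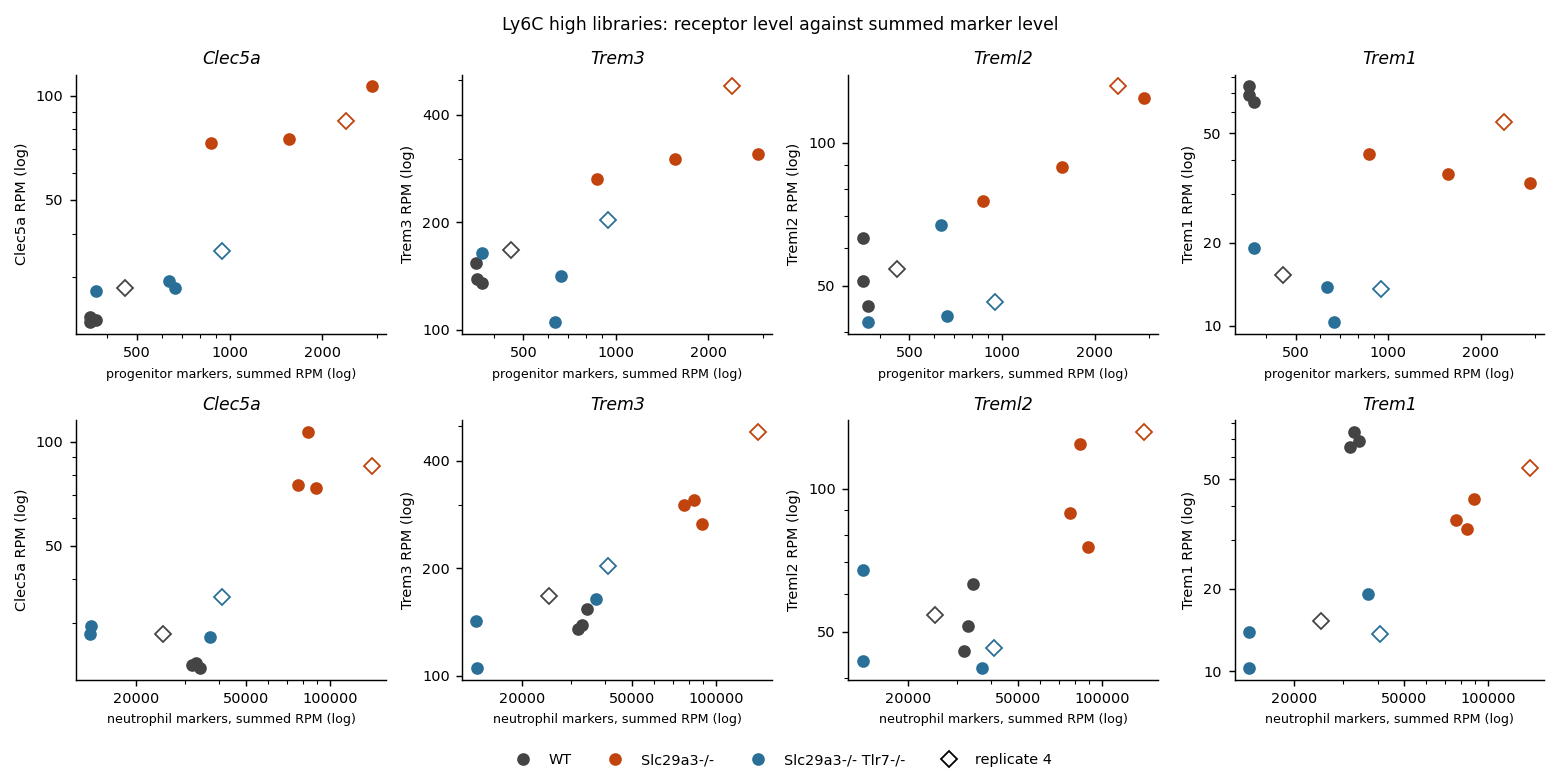
Levels of Clec5a, Trem3, Treml2, and Trem1 (y axes, RPM, log) in the 12 Ly6C high libraries against the summed level of granulocyte-monocyte progenitor markers (top, RPM, log) and of neutrophil markers (bottom, RPM, log). Points are libraries, colored by genotype, and diamonds are replicate 4. The 4 Slc29a3-/- libraries lie at the right for neutrophil markers and above the others for Clec5a, Trem3, and Treml2, whereas Trem1 is highest in WT replicates 1 to 3.

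When both genes were lost, the levels of Clec5a, Trem3, and Treml2 in Ly6C high cells overlapped those of WT. Clec5a was at 27.3, 27.8, 29.2, and 35.5 RPM in Slc29a3-/- Tlr7-/- libraries, a difference from WT of 0.31 ± 0.15 (adjusted p = 0.24). Every one of these values was above WT replicates 1 to 3, and the overlap was with WT replicate 4 only, at 27.8 RPM. The differences of Trem3 and Treml2 were 0.01 and -0.12. Only Trem1 was called, 1 of 9 genes, against 1.15% of all genes called lower and 0.312% called higher. Trem1 was at 19.1, 10.3, 13.9, and 13.6 RPM in Slc29a3-/- Tlr7-/- libraries, below WT replicates 1 to 3 but overlapping WT replicate 4 at 15.3 RPM. Its difference was -1.71 ± 0.39 (adjusted p = 0.0466), -2.24 (adjusted p = 2.0e-05) without WT replicate 4, and -0.13 (adjusted p = 1) against WT replicate 4 alone. Hcst and Syk did not pass the test (differences -0.69 and 0.62, adjusted p = 0.08 and 0.062) and passed it when WT replicate 4 was left out (-0.86 and 0.74, adjusted p = 0.011 and 0.0079).

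The comparison of Slc29a3-/- with Slc29a3-/- Tlr7-/- libraries addresses whether TLR7 is needed, and its differences do not use the WT levels. The filter and the estimate of the spread, and so the SE and p-values, come from all 12 libraries, WT included. It shares the Slc29a3-/- libraries with the comparison above. Clec5a (1.46 ± 0.15, adjusted p = 9.6e-05), Trem3 (1.14 ± 0.20, adjusted p = 0.0014), Treml2 (1.05 ± 0.20, adjusted p = 0.002), and Trem1 (1.48 ± 0.39, adjusted p = 0.015) were higher in Slc29a3-/- Ly6C high libraries. Trem2 was lower (-1.05 ± 0.29, adjusted p = 0.021). These 5 called genes of 9 stand against 20.4% of all genes called. The 4 libraries of each genotype did not overlap for the 4 higher genes, against 9.81% of all genes.

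Trem2 was at 55.9, 82.6, 59, and 40.7 RPM in the Slc29a3-/- Tlr7-/- libraries, where the lowest stood just above the highest Slc29a3-/- value of 39.6 RPM. The Trem2 call was lost without Slc29a3-/- Tlr7-/- replicate 2. The Trem1 call was lost without Slc29a3-/- replicate 4 (1.34, adjusted p = 0.059). Tyrobp was at 1370.4 ± 271 RPM against 1803 ± 133 RPM in Slc29a3-/- Tlr7-/- libraries, without overlap and not called (-0.42 ± 0.15, adjusted p = 0.066). Of the neutrophil markers 9 were higher and 1 lower, and of the progenitor markers 5 were higher and none lower, in Slc29a3-/- than in Slc29a3-/- Tlr7-/- libraries. Of all 10561 genes tested, 1059 were higher and 1091 lower. The part of these cells was not tested here either.

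**Figure D4:**
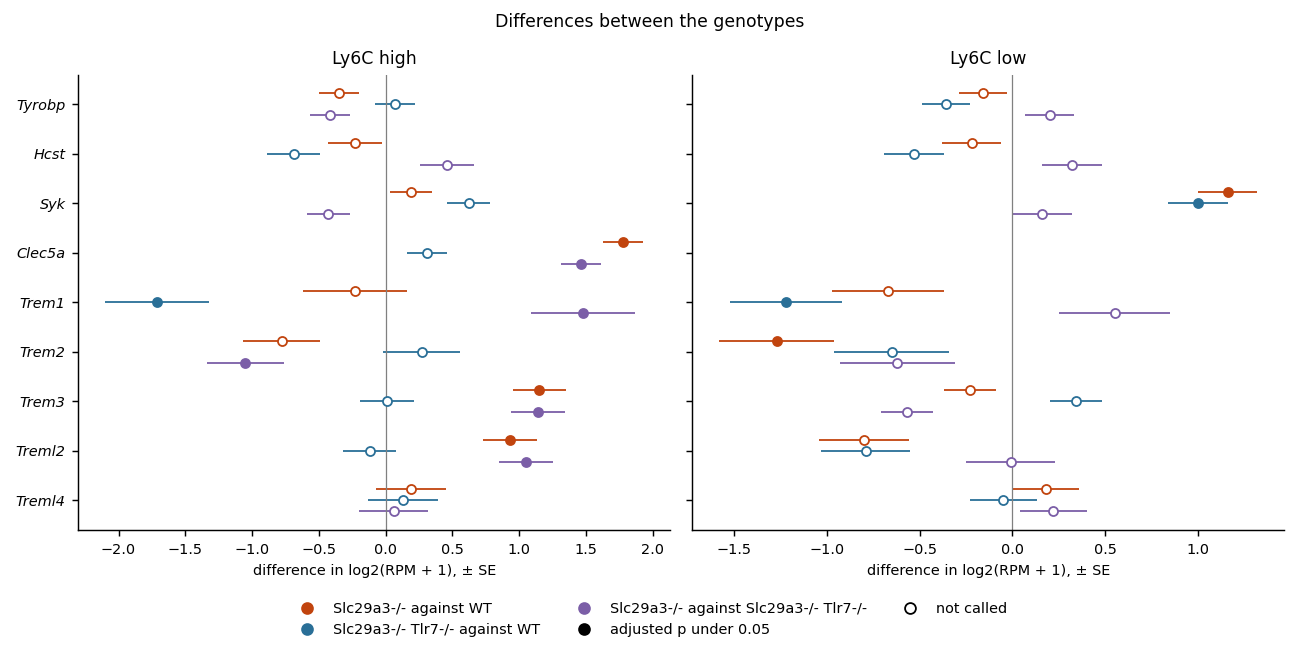
Genotype differences in log2(RPM + 1) (x axis) for Ly6C high (left) and Ly6C low (right) libraries, with a separate x scale in each panel and colors for the 3 comparisons. Points are limma estimates with bars of 1 SE, filled where the adjusted p was under 0.05. Clec5a, Trem3, and Treml2 lie above 0 in both comparisons of Slc29a3-/- in Ly6C high cells, and Syk is the gene called above 0 in Ly6C low cells.

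The same genotypes were compared in Ly6C low cells. Syk was higher in Slc29a3-/- libraries than in WT libraries by 2.24-fold on the log2(RPM + 1) scale, and Trem2 was lower. Treml1 and Clec5a failed the filter on low values, which left 8 genes, and 1 of 8 was higher and 1 lower, against 2.02% and 2.63% of all genes. Syk was at 263, 210.3, 249, and 352 RPM in WT libraries and at 502, 656, 569, and 661 RPM in Slc29a3-/- libraries. The groups did not overlap, and the difference was 1.16 ± 0.16 (adjusted p = 9.5e-04). Against WT replicate 4 alone, the highest WT library, it was 0.75 (adjusted p = 0.3).

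Syk was also higher in Ly6C low Slc29a3-/- Tlr7-/- libraries, at 504, 483, 545, and 594 RPM. All were above the WT values, with a difference of 1.00 ± 0.16 (adjusted p = 0.0064), or 0.59 (adjusted p = 0.44) against WT replicate 4 alone. Between Slc29a3-/- and Slc29a3-/- Tlr7-/- libraries the Syk difference was 0.16 ± 0.16 (adjusted p = 0.6). Both comparisons with WT use the same 4 WT libraries.

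Trem2 was low in all Ly6C low libraries. It was at 5.41, 3.2, 3.71, and 3.58 RPM in Slc29a3-/- libraries, below every WT library, of which replicate 4 was the lowest at 6.05 RPM. The difference was -1.27 ± 0.31 (adjusted p = 0.03), and against WT replicate 4 alone it was -0.52 (adjusted p = 0.82). The call was lost in 9 of 18 alternatives, among them the replicate block, no filter, and the removal of a single library (WT replicate 1, 2, or 3, or Slc29a3-/- replicate 2, 3, or 4). In Slc29a3-/- Tlr7-/- libraries Trem2 was at 3.31, 7.15, 8.05, and 9.19 RPM, which overlapped WT (difference -0.65 ± 0.31, adjusted p = 0.17).

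Trem1 was the gene called lower in Ly6C low Slc29a3-/- Tlr7-/- libraries, where 1 of 8 genes was higher and 1 lower against 2.50% and 6.37% of all genes. It was at 131, 129, 86.7, and 46.5 RPM there, at 144, 149, 123, and 121 RPM in Slc29a3-/- libraries, and at 127 to 274 RPM in WT libraries. The highest Slc29a3-/- Tlr7-/- libraries overlapped WT replicate 4. The difference from WT was -1.22 ± 0.30 (adjusted p = 0.03) in Slc29a3-/- Tlr7-/- libraries and -0.67 ± 0.30 (adjusted p = 0.23) in Slc29a3-/- libraries. Against WT replicate 4 alone the former was -0.48 (adjusted p = 0.65), and without WT replicate 4 the latter was -0.91 (adjusted p = 0.0476).

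Both adaptors had lower values in Ly6C low Slc29a3-/- Tlr7-/- cells but did not pass the test. Hcst was at 64, 62.7, 56.9, and 46.6 RPM there and at 84.9, 96.8, 87.3, and 66.6 RPM in WT libraries. The groups did not overlap, and the difference was -0.53 ± 0.16 (adjusted p = 0.0522), or -0.64 (adjusted p = 0.012) without WT replicate 4. Tyrobp was at 1785, 1473, 1567, and 1323 RPM against 1797 to 2159.9 RPM in WT (-0.36 ± 0.13, adjusted p = 0.096), and its difference without WT replicate 4 was called at -0.40 (adjusted p = 0.044). Groups without overlap that were lower were found for 3 of the 8 genes, Tyrobp, Hcst, and Treml2, against 9.29% of all genes.

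Treml2 and Clec5a were close to the detection limit in Ly6C low cells. Treml2 was at 4.82, 6.11, 4.14, and 4.75 RPM in WT libraries, above all Slc29a3-/- values of 1.51 to 3.31 RPM and all Slc29a3-/- Tlr7-/- values of 1.76 to 3.39 RPM. Its differences were -0.80 ± 0.24 (adjusted p = 0.074) and -0.79 ± 0.24 (adjusted p = 0.0538). Clec5a was at 0 to 0.24 RPM in Slc29a3-/- libraries, at most 3 reads, and at 0 in 3 of 4 Slc29a3-/- Tlr7-/- libraries, where the fourth held 1 read. The exact two-sided permutation test against the 8 to 16 reads of WT libraries gave p = 0.029 for each mutant, the smallest it can give (0.087 after adjustment over 9 tests).

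Neutrophil markers were lower in the mutant Ly6C low libraries, 3 of 10 tested in Slc29a3-/- and 9 of 10 in Slc29a3-/- Tlr7-/- libraries, and of 6 progenitor markers none and 4 were lower. Of all genes 2.63% and 6.37% were lower in the same order. Against WT replicate 4 alone, 1 and 0 of the 10 neutrophil markers were lower, and their medians moved from -3.03 to 0.19 and from -3.97 to -0.97. The neutrophil marker sum was 251 to 2606 RPM in WT, with replicate 4 lowest, 150 to 334 RPM in Slc29a3-/-, and 154 to 217 RPM in Slc29a3-/- Tlr7-/- libraries. The progenitor sum was 19.8 to 64.8 RPM, 6.2 to 20.6 RPM, and 10.5 to 16.8 RPM. Ly6g was at 3 reads or fewer in every Slc29a3-/- Tlr7-/- library. Of 6 red pulp macrophage markers 2 were higher in Slc29a3-/- libraries than in WT and 2 than in Slc29a3-/- Tlr7-/- libraries. Of all 10317 genes tested, 208 and 126 were higher in these 2 comparisons. The red pulp macrophage sums were 540 to 611 RPM in WT, 801 to 1095 RPM in Slc29a3-/-, and 506 to 1580 RPM in Slc29a3-/- Tlr7-/- libraries. Of 3 erythroid markers 2 were higher in the same comparisons, although their sums overlapped between Slc29a3-/- (54.6 to 74.7 RPM) and WT libraries (37.4 to 95.8 RPM). None of these 2 lists was called against WT replicate 4 alone. The part of any of these cells in the values of Syk, Trem1, Trem2, Treml2, and Clec5a was not tested.

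Between the mutants, none of the 8 genes was called by limma in Ly6C low cells, against 1.93% of all genes. Only 1 gene, Trem3, had an unadjusted p under 0.05, a limit at which the share of all genes was not counted. By the thresholds of the study, a fold change over 1.5 with an unadjusted p under 0.05, the count was 0, against 13.7% of all genes. Trem3 was at 234, 201, 245, and 220.4 RPM in Slc29a3-/- and at 364, 262, 364, and 356 RPM in Slc29a3-/- Tlr7-/- libraries. The groups did not overlap, and the difference was -0.57 ± 0.14 (unadjusted p = 0.0012, adjusted p = 0.059). Under TMM and RLE scaling it was called (-0.62 and -0.64, adjusted p = 0.036 and 0.031). Treml4 was at 1882 ± 127 RPM in Slc29a3-/- libraries against 1647 ± 391 RPM when Tlr7 was lost too, and it was not called between genotypes in either subset.

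An interaction fitted over all 24 libraries tested whether a genotype effect was the same in both subsets. For Slc29a3-/- against WT, the effect in Ly6C high minus that in Ly6C low cells was 1.73 ± 0.31 for Treml2 (adjusted p = 9.2e-04), 1.39 ± 0.25 for Trem3 (adjusted p = 0.0011), and -0.97 ± 0.23 for Syk (adjusted p = 0.0075). The fitted value of Clec5a was 2.50 and ranged from 2.06 to 3.96 over the alternatives, since its part in Ly6C low cells is set by the added 1 RPM, and Clec5a entered this fit only through the Ly6C high libraries. With Clec5a 4 of 9 genes were called, against 8.85% of all genes. None of Treml2, Trem3, and Syk was called against WT replicate 4 alone. For Slc29a3-/- against Slc29a3-/- Tlr7-/-, Trem3 (1.71), Clec5a (1.31), Treml2 (1.06), and Tyrobp (-0.62, adjusted p = 0.0496) were called, 4 of 9 against 8.97% of all genes. Of these calls, Tyrobp was lost in 17 of 25 alternatives, Treml2 in 9, Clec5a with a pseudocount of 0.1, and Trem3 in none. For Slc29a3-/- Tlr7-/- against WT, limma called 0 of 9 genes, against 0.0634% of all genes. An unadjusted p under 0.05 was found for 4: Clec5a, Treml2, Trem2, and Tyrobp. The share of all genes at that unadjusted limit was not counted, so the 4 cannot be set against it.

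The genes that work with these adaptors were read from 6 lists. Of 18 other DAP12 or DAP10 partner receptors, 17 had an amplicon and 16 were tested in Ly6C high cells, where 7 were lower and none higher in Slc29a3-/- than in WT libraries, with a median of -0.79 against -0.14 over all genes and 17.8% of all genes called lower. Only Siglech was called lower against WT replicate 4 alone. Siglech, a receptor of plasmacytoid dendritic cells, had a difference of -3.27 (adjusted p = 4.4e-05), and Klra8, an activating NK receptor, of -3.55 (adjusted p = 0.0046). Klrk1, the NKG2D receptor that pairs with DAP10, was at 3.06 against 11.1 RPM (-1.53, adjusted p = 0.027), and Plxna1, a semaphorin receptor that associates with TREM2, had a difference of -1.08 (adjusted p = 0.01). Summed plasmacytoid dendritic cell markers, a list that holds Siglech itself, were at 61.4 to 111 RPM in WT and 13.2 to 24.4 RPM in Slc29a3-/- Ly6C high libraries. NK cell markers were at 143 to 531 RPM and 108 to 181 RPM in the same order. The part of these cells in the receptor values was not tested. In Ly6C low cells 1 partner was higher and 4 were lower in Slc29a3-/- libraries, and 3 were higher and 3 lower in Slc29a3-/- Tlr7-/- libraries, of 16 tested against WT, where 2.02% and 2.63% and then 2.50% and 6.37% of all genes were called. None was called in either against WT replicate 4 alone. The partners called in Slc29a3-/- libraries all had a mean under 10 RPM over the Ly6C low libraries. Summed NK cell markers were at 24.1 to 124 RPM in Ly6C low WT and 13 to 38.4 RPM in Ly6C low Slc29a3-/- libraries, and their part was not tested. The higher partners in Slc29a3-/- Tlr7-/- libraries were the activating receptors Cd300lb (1.01, adjusted p = 0.03) and Sirpb1b (0.81, adjusted p = 0.025) and Csf1r, the receptor for macrophage colony-stimulating factor (0.82, adjusted p = 0.033). In Slc29a3-/- Tlr7-/- Ly6C high libraries no gene of the 6 lists was called against WT by limma, with Csf1r at 0.82 (adjusted p = 0.078). An unadjusted p under 0.05 was found for 7 partner receptors, 9 genes of the Syk pathway, 3 inhibitors, and 3 genes of the TREM2 list. The share of all genes at that unadjusted limit was not counted, so these counts cannot be set against it.

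Of 12 TREM and NKG2D ligands 5 were tested in Ly6C high cells. In Slc29a3-/- libraries 2 were higher and 1 lower than in WT libraries, against 10.2% and 17.8% of all genes. Pglyrp1, a peptidoglycan recognition protein of neutrophil granules that binds TREM1, was at 1168 against 343 RPM (1.75, adjusted p = 3.2e-04). Ulbp1, an NKG2D ligand, had a difference of 1.02 (adjusted p = 0.0089). Apoe, a lipoprotein that binds TREM2, was at 29.1 against 71.7 RPM (-1.26, adjusted p = 3.3e-04). Pglyrp1 and Apoe were also called against WT replicate 4 alone, and Ulbp1 was not. The neutrophil marker sum given above was higher in the same Slc29a3-/- libraries, and its part in the Pglyrp1 level was not tested. Between subsets in WT mice Pglyrp1 was higher in Ly6C low cells, at 672 against 343 RPM (0.98, adjusted p = 9.8e-04, and 1.36 with adjusted p = 0.12 between the replicate 4 libraries alone), where the neutrophil marker sum was lower.

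Downstream of Syk, 8 of 33 pathway genes were lower and none higher in Ly6C high Slc29a3-/- libraries against WT, a share near the 17.8% of all genes called lower. Their median was -0.24, and none was called against WT replicate 4 alone. The 8 included the adaptor Lat2 (-0.94, adjusted p = 0.0029), the transcription factor Nfatc1 (-0.82, adjusted p = 5.2e-04), and the phosphoinositide 3-kinase subunit Pik3r1 (-0.55, adjusted p = 0.0451). In Ly6C low cells 1 of 32 was higher, the kinase subunit Pik3cd (0.70, adjusted p = 0.04), and 1 lower, Lat2 (-0.72, adjusted p = 0.036), shares near the 2.02% and 2.63% of all genes, and neither was called against WT replicate 4 alone. Between subsets in WT mice, 6 were higher and 5 lower in Ly6C low cells, against 10.5% and 19.1% of all genes. Among the higher were the Src family kinase Fyn (2.08, adjusted p = 2.2e-06) and the kinase Ptk2b (1.83, adjusted p = 1.7e-07). Fcer1g, the ITAM adaptor that serves Fc receptors, was at 2539 ± 213 RPM in Ly6C high and 3918 ± 570 RPM in Ly6C low WT libraries (0.62, adjusted p = 0.0036). Between the replicate 4 libraries alone Fyn stayed called and Ptk2b and Fcer1g did not.

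Of 17 measured receptors, kinases, and phosphatases that restrain ITAM signals, 2 were higher and 2 lower in Ly6C high Slc29a3-/- libraries against WT, shares near the 10.2% and 17.8% of all genes. In Ly6C low Slc29a3-/- libraries 2 were higher and none lower, against 2.02% and 2.63% of all genes, and in Ly6C low Slc29a3-/- Tlr7-/- libraries none was higher and 3 were lower, against 2.50% and 6.37%. Siglece, a sialic acid receptor with inhibitory motifs, was at 316 against 71.2 RPM (2.13, adjusted p = 1.6e-05), and Clec4a2, an inhibitory lectin receptor, had a difference of 1.13 (adjusted p = 0.036). Siglece stayed called against WT replicate 4 alone (2.39, adjusted p = 0.012) and Clec4a2 did not (0.48, adjusted p = 0.8). In Ly6C high Slc29a3-/- libraries both were higher as well (Siglece 0.73, adjusted p = 0.013, and Clec4a2 1.07, adjusted p = 5.8e-04) and the inhibitory receptor Cd300a was lower (-0.66, adjusted p = 0.019), and no inhibitor was called there against WT replicate 4 alone. In Ly6C low Slc29a3-/- Tlr7-/- libraries the lower inhibitors included the receptor Cd300lf (-1.40, adjusted p = 0.021) and the phosphatase Ptpn11 (-0.84, adjusted p = 0.0468), which were not called against WT replicate 4 alone. Siglece was also higher in Ly6C low Slc29a3-/- than Slc29a3-/- Tlr7-/- libraries (1.96, adjusted p = 5.1e-05), where the red pulp macrophage and erythroid markers given above were also higher, and their part was not tested. The phosphatase Ptpn6 (SHP-1) was higher in Ly6C low than in Ly6C high WT cells (0.84, adjusted p = 4.3e-06, and 0.84 with adjusted p = 0.06 between the replicate 4 libraries alone).

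Among 16 genes of the microglial program that depends on TREM2, 3 were higher and 9 lower in Ly6C high Slc29a3-/- libraries against WT, with a median of -0.65, against 10.2% and 17.8% of all genes, and 1 was lower against WT replicate 4 alone. Conventional dendritic cell markers moved with them: all 5 were lower against WT and against Slc29a3-/- Tlr7-/- libraries, and their sum was 15.1 to 36.8 RPM in Slc29a3-/-, 75.7 to 102 RPM in WT, and 86.3 to 110.2 RPM in Slc29a3-/- Tlr7-/- libraries. Of the 5, 1 was lower against WT replicate 4 alone, and the part of these cells was not tested. The higher genes included the tetraspanin Cd63 (1.60, adjusted p = 0.0072), and the lower ones included the lipase Lpl (-1.30, adjusted p = 0.0087) and Apoe, given above. Between subsets in WT mice the integrin Itgax (2.94, adjusted p = 1.3e-09) and Cd9 (2.55, adjusted p = 2.6e-06) were higher and Cd63 was lower (-3.31, adjusted p = 4.1e-07) in Ly6C low cells. In Ly6C low Slc29a3-/- cells 2 were lower and none higher: the beta-glucan receptor Clec7a (-1.56, adjusted p = 4.5e-05) and Cd9, a further tetraspanin (-1.33, adjusted p = 0.0094). Of the pair Clec7a was called against WT replicate 4 alone (-1.75, adjusted p = 0.03). Adam10 and Adam17, the proteases that shed TREM2, were not called between genotypes in either subset.

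The genes whose levels were most like those of each member over the 24 libraries were ranked by Pearson r of log2(RPM + 1) among 7492 genes, with r of the deviations from the 6 group means beside it. The libraries share groups, so the first r mostly reflects the group means, and no test was made. Clec5a was most like Gfi1 (r = 0.993, within groups 0.44), Ms4a3 (0.992, within 0.55), and Lbp (0.990, within 0.37). Gfi1 and Ms4a3 mark granulocyte-monocyte progenitors. Treml2 was most like Anxa3 (0.994, within 0.70) and Clec5a itself (0.988, within 0.13).

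For Treml4 the nearest gene was Ccm2 (0.988, within 0.68), for Trem2 it was Ninj1 (0.967, within 0.79), and for Trem1 it was Chst15 (0.921, within 0.60). Trem3 was most like Hjurp (0.872, within 0.45), a gene of dividing cells. Syk was most like Kctd21 (0.920, within 0.63), Tyrobp like Slc35f6 (0.863, within 0.83), and Hcst like Cbfb (0.867, within 0.75).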

How the data were processed

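The authors deposited reads scaled to 1 library total (RPM) of 23930 amplicons in 24 libraries, made with a 1 amplicon per gene kit and sequenced on an Ion Proton. The sample descriptions name the Torrent Suite transcriptome plug-in, the methods name Cutadapt, STAR (mm10), HTSeq, and DESeq2, and which of them wrote the table is not stated. Reads are PCR copies with no molecular identifiers, so counting intervals cover counting error only. The table writes 0.0001 for 0 reads, which was set to 0, and 27 gene names turned into dates were repaired. Reads per library were inferred from the step between low values, of which 100% under 5 RPM were whole within 0.1 read.

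Libraries were grouped by their labels. The 10 genes and all gene lists were chosen with earlier results of these data known, and all 10 genes are named. Over the pathway lists 9 fixed genes were followed and, per list and comparison, the 3 called genes with the largest difference at a mean of at least 10 RPM. A result that the rule names is not reported here. Values were transformed to log2(RPM + 1), and a gene entered a fit if 4 or more libraries had 1 RPM or more (10561 in Ly6C high, 10317 in Ly6C low, and 11042 in both). limma 3.58.1 in R 4.3.3 was fitted with an intensity trend, on 12 libraries of a subset for genotypes and on all 24 for subsets and interactions, and p-values were adjusted over all genes by Benjamini-Hochberg. Tests ran on simulated data first, where with 4 libraries a group 62.5% of 2-fold changes and 0% of 1.5-fold changes were called in the Ly6C high Slc29a3-/- comparison. Far fewer genes were changed in the simulation than were called in the data, which makes the adjusted threshold stricter. Those shares are therefore not the shares to be found in these data. Deviations from the group means had r of 0.26 to 0.62 between same-numbered WT libraries of the 2 subsets. Between different numbers r was -0.47 to 0.32, and only 1 of 4 libraries was most like its own number. In Slc29a3-/- mice 3 of 4 were, with same-numbered r of -0.08 to 0.26. Only in WT mice was every same-numbered r positive, and whether libraries pair by number is not settled. Other scalings, filters, and fits, and each library left out in turn, were tried.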

Additional observations from a re-analysis of the deposited data

Results flagged for a closer look

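In 12 of 60 groups of 4 libraries, 1 library stood apart from the other 3 by Dixon's test at the 95% level, which by chance marks about 1 in 20 groups. In Ly6C high WT libraries, replicate 4 stood apart for Hcst (56.4 RPM), Trem1 (15.3 RPM), and Clec5a (27.8 RPM), and replicate 3 for Treml4 (221 RPM). In Ly6C low WT libraries, replicate 4 stood apart for Trem2 (6.05 RPM) and replicate 2 for Treml1 (0.549 RPM). In Ly6C high Slc29a3-/- Tlr7-/- libraries, replicate 1 stood apart for Hcst (70.7 RPM) and Treml4 (368 RPM), and replicate 3 for Treml2 (67.2 RPM). In Ly6C low Slc29a3-/- Tlr7-/- libraries, replicate 2 stood apart for Trem3 (262 RPM) and Treml1 (0.715 RPM), and replicate 1 for Clec5a (0.081 RPM, 1 read). No library of the Slc29a3-/- groups was marked, although Ly6C high replicate 4 held the lowest Tyrobp (985 RPM) and the highest Trem3 (481 RPM) of all 24 libraries.

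The effect of a genotype differed between the subsets in 8 tests of the difference itself, given as the effect in Ly6C high minus that in Ly6C low cells. For Slc29a3-/- against WT these were Clec5a (2.50), Treml2 (1.73), Trem3 (1.39), and Syk (-0.97). For Slc29a3-/- against Slc29a3-/- Tlr7-/- these were Trem3 (1.71), Clec5a (1.31), Treml2 (1.06), and Tyrobp (-0.62). Clec5a was at 0 to 16 reads in every Ly6C low library, so its differences depend on the 1 RPM added before the log.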

How the results depend on the processing

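Of 2134 values of single genes under the alternatives, 2007 kept their call, 79 lost the call, 48 gained it, and none that was called reversed. A value that was not called in either setting counted as kept whatever its direction. Of 41 called values, 23 were kept under every alternative run. The counts of called genes that moved by over 1.5 times were as follows. For Slc29a3-/- against WT in Ly6C high cells, 1 was called (3 in the main analysis) against WT replicate 4 alone. For Slc29a3-/- Tlr7-/- against WT in Ly6C high cells (1 in the main analysis), 0 were called with a pseudocount of 0.1, no filter, a mean of at least 10 RPM, only the groups compared, the replicate block, no intensity trend, or WT replicate 4 alone, and 3 with all 24 libraries or the thresholds of the study. For Slc29a3-/- against Slc29a3-/- Tlr7-/- in Ly6C high cells (5), 3 were called with no filter. In Ly6C low cells, Slc29a3-/- against WT (2) gave 1 at a mean of at least 10 RPM and under the replicate block, 4 with all 24 libraries and by the thresholds of the study, and 0 against WT replicate 4 alone. Slc29a3-/- Tlr7-/- against WT (2) gave 1 with only the groups compared, 4 with all 24 libraries, and 0 against WT replicate 4 alone, and Slc29a3-/- against Slc29a3-/- Tlr7-/- (0) gave 1 under TMM and RLE scaling. For the difference between subsets, Slc29a3-/- against WT (4) gave 1 against WT replicate 4 alone, Slc29a3-/- Tlr7-/- against WT (0) gave 1 with a pseudocount of 0.1 or no intensity trend and 3 by the thresholds of the study, and Slc29a3-/- against Slc29a3-/- Tlr7-/- (4) gave 2 with no filter and 1 with a pseudocount of 0.1. The cause was not tested. Leaving out each library in turn, counts in Ly6C high cells ranged from 3 to 4 (Slc29a3-/- against WT), 0 to 3 (Slc29a3-/- Tlr7-/- against WT), and 4 to 7 (between the mutants), and in Ly6C low cells from 1 to 3, 1 to 6, and 0 to 1 in the same order. Between the subsets they ranged from 6 to 7 in WT, 6 to 8 in Slc29a3-/-, and 6 to 6 in Slc29a3-/- Tlr7-/- mice, and for the interactions from 4 to 4, 0 to 1, and 2 to 4.

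Every same-numbered r was positive only in the comparison of subsets in WT mice, although only 1 library was most like its own number there. In that comparison the replicate block again gave 6 called genes. A block by genotype and replicate number, chosen after seeing the data, gave 7, with Syk called at -0.39. TMM scaling turned the calls of all genes for Ly6C high Slc29a3-/- against WT from 1072 higher and 1877 lower to 1538 higher and 1342 lower, and against Slc29a3-/- Tlr7-/- from 1059 and 1091 to 1347 and 682. The edgeR and DESeq2 alternatives were not run, since the table holds RPM and reads were only inferred from it. Depth limits Treml1 in all libraries and Clec5a in Ly6C low libraries, where 3 reads are 0.206 to 0.244 RPM.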
